A study of Bos taurus with 6 samples.

Results

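The genes described here belong to the HSP90 and HSP60 chaperone systems and to the small heat shock proteins. They are HSP90AA1, CHORDC1, FKBP4, CACYBP, DNAJA1, HSPD1, HSPB8 and HSPBAP1. Members were every probe set whose platform annotation gave exactly one of these symbols, which chose 9 of 12763 probe sets for 8 genes. HSP90AA1 had 2 probe sets and each other gene 1. In the table as a whole, 8125 probe sets carried a single symbol and stood for 6337 genes.

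The study compared blood cells of Sanhe heifers, a Chinese dual-purpose breed, after and before severe cold, to follow expression in response to it. The after-cold group (3 arrays, numbered 1 to 3 in the labels) had been kept outdoors at -32 °C for 3 hours and then in a cowshed at 5 °C for 15 hours, and at which point of that schedule its blood was taken is not stated. The before-cold group (3 arrays, numbered 4 to 6) had not been exposed. Heifers are cows that have not calved. All shared a cowshed and ate the same mixed ration. The 6 RNA samples came from 3 animals out of 30, each sampled at both times, but the labels do not say which samples share an animal. Each array gave a single-colour intensity per probe set, and values below are log2 intensities, on which a difference of 1 is a doubling. A probe set's values can be compared between arrays, whose medians differ somewhat, but not with those of another probe set.

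HSP90 is a cytosolic chaperone that holds kinases, steroid hormone receptors and other clients near their active shape while it cycles through ATP binding and hydrolysis. Co-chaperones load clients onto it or pace that cycle, and J-domain proteins hand unfolded proteins to HSP70, which acts upstream of HSP90. HSP60 folds imported proteins inside mitochondria, and small heat shock proteins bind unfolding proteins without using ATP. Many of these genes are known targets of the transcription factor HSF1 when cells are heated.

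None of the 8 genes passed the test of the blood cells after cold against those before it. By limma, a linear model with moderated variance fitted over the whole table, 0 of the 9 probe sets passed a Benjamini-Hochberg adjusted p of 0.05, as did 0% of all probe sets, and every adjusted p was 1. The largest difference was that of HSPBAP1, which was lower after cold on every array, followed by CHORDC1 and DNAJA1, also with lower means. FKBP4 and HSPB8 had higher means after cold, and HSP90AA1 itself lay close to 0. At an unadjusted p under 0.05 there was 1 of 9 probe sets, HSPBAP1, against 0.494% of all probe sets. A difference of at least 1.5-fold was seen in 2 of 9, CHORDC1 and HSPBAP1, against 7.04% of all. Both were lower after cold, as were 6.81% of all probe sets, while 0 of 9 were higher by that much, against 0.227%. The mean was lower after cold in 6 of 9, against 47.6%, and higher in 3 of 9, against 52.4%. With 9 probe sets, and members chosen with earlier results known, these shares are a description only.

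The arrays differed among themselves in a way that did not follow the groups. The after 2 and before 6 arrays were nearly alike: their median absolute difference over all probe sets was 0.11, and only 4 were more than 2-fold apart. Within the after-cold group, after 2 and after 3 had a median absolute difference of 0.82, with 4867 probe sets more than 2-fold apart. The median over all probe sets of the absolute difference between group means was 0.20. For this reason the difference of each member probe set is given over all 6 arrays and again without after 2 and before 6. Differences of other genes are given over all 6 arrays only. Because pairs of arrays share an animal, the p-values, which take the arrays as separate, measure the spread between these samples only. Differences between animals count as error in this fit, so that no probe set passed does not show that expression was unchanged. With a block for a matching of samples, 0.188% to 9.15% of all probe sets had an unadjusted p under 0.05 in limma, against 0.494% without a block.

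**Figure D1:**
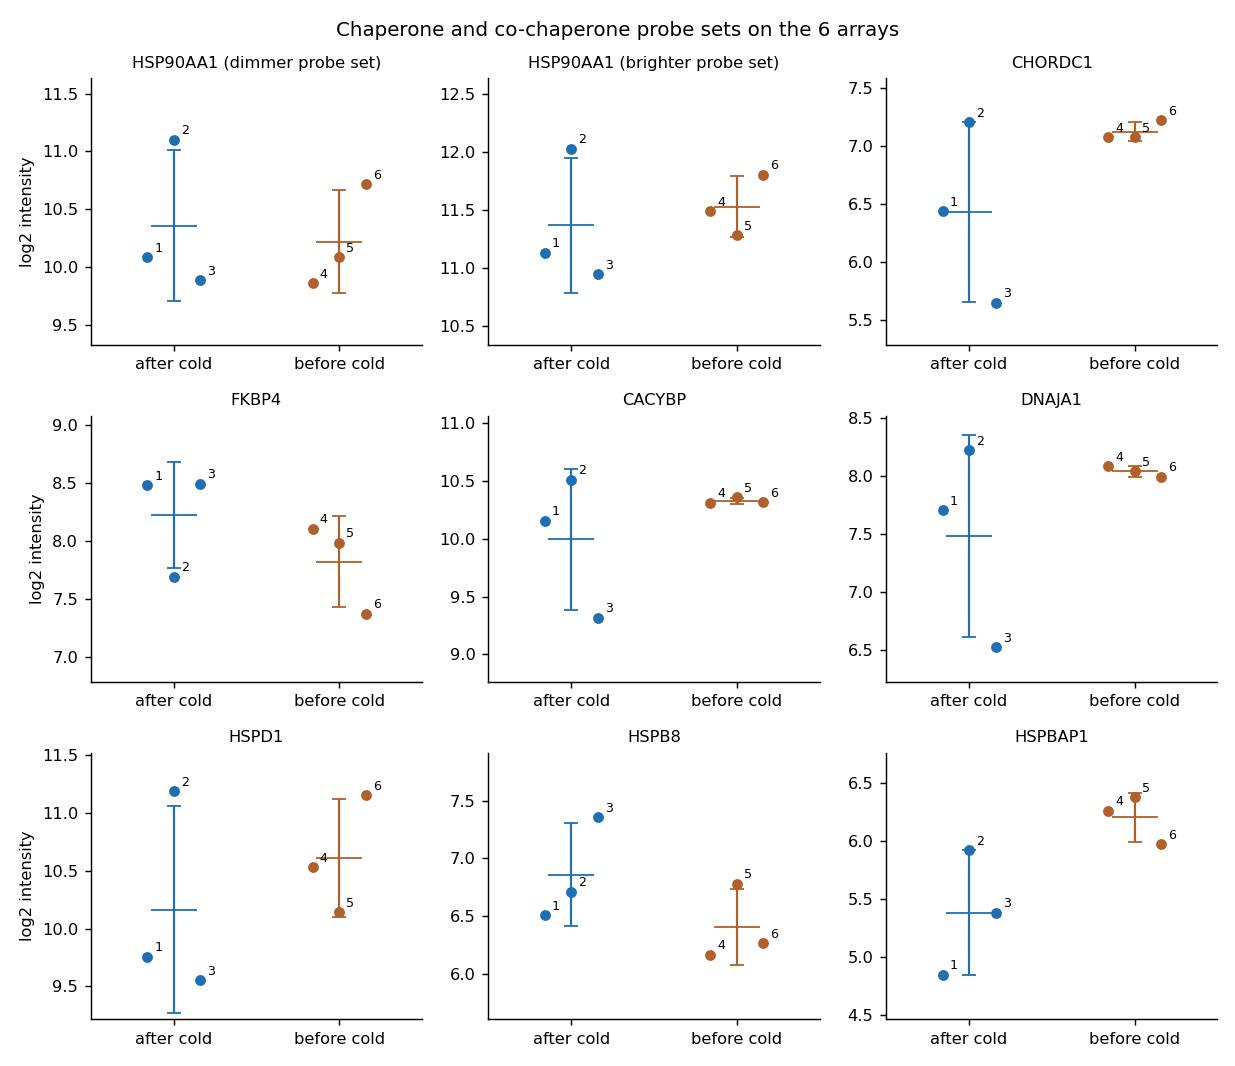
Log2 intensity of the 9 probe sets, 1 panel each, with after-cold arrays (blue) left of before-cold arrays (brown). Points are arrays with their label numbers, the wide bar is the group mean and the error bar the SD (n = 3); each panel spans the same height. HSPBAP1 has groups that do not overlap, and CHORDC1, CACYBP and DNAJA1 are tightly grouped before cold and spread after it.

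HSP90AA1 encodes the inducible cytosolic HSP90 alpha. Its brighter probe set was at 11.13, 12.03 and 10.95 on the after 1, 2 and 3 arrays, against 11.49, 11.28 and 11.81 on before 4, 5 and 6. Its dimmer probe set was at 10.09, 11.10 and 9.89 after cold, against 9.86, 10.09 and 10.71 before cold. In both probe sets after 2 was the highest array and before 6 the next, and the groups overlapped. The brighter one averaged 11.37 ± 0.58 after cold and 11.53 ± 0.26 before cold (SD, n = 3 each), a difference of -0.16 ± 0.35 (SE of the limma fit) with a 95% interval of -0.95 to 0.63. The dimmer one averaged 10.36 ± 0.65 after cold and 10.22 ± 0.44 before cold, a difference of 0.14 ± 0.39 with an interval of -0.76 to 1.04. The probe sets thus differed in sign, each by less than its SE, and they parted most on before 4, which was the lowest array for the dimmer one and the third highest for the brighter one. Without after 2 and before 6 the differences were -0.35 ± 0.26 and 0.014 ± 0.26.

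Among the HSP90 co-chaperones, CHORDC1, a zinc-binding protein that associates with the ATPase domain of HSP90, had the largest difference. It was at 6.44, 7.21 and 5.65 on the after 1, 2 and 3 arrays, against 7.08, 7.08 and 7.23 on before 4, 5 and 6. Before cold the arrays lay within a narrow band, after 2 lay inside that band, and after 1 and after 3 lay below it. The mean was 6.43 ± 0.78 after cold and 7.13 ± 0.085 before cold (SD, n = 3 each). The limma difference was -0.70 ± 0.39 (SE), with a 95% interval of -1.59 to 0.20. Without after 2 and before 6 it was -1.04 ± 0.32 (adjusted p = 0.492), and without after 3 it was -0.31.

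CACYBP binds the S100 protein calcyclin and the ubiquitin ligase SIAH1, and shares a domain type with the co-chaperone SUGT1. It was at 10.15, 10.51 and 9.32 on the after 1, 2 and 3 arrays, against 10.31, 10.36 and 10.32 on before 4, 5 and 6. The groups overlapped: after 2 lay above every before-cold array, and after 3 lay about 1 log2 unit below them. The difference was -0.33 ± 0.34 (SE), with an interval of -1.11 to 0.44. It was -0.60 ± 0.33 without after 2 and before 6, and 0.0033 without after 3.

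FKBP4 encodes FKBP52, a peptidyl-prolyl isomerase that joins HSP90 in steroid receptor complexes. It was at 8.48, 7.69 and 8.50 on the after 1, 2 and 3 arrays, against 8.11, 7.99 and 7.37 on before 4, 5 and 6. Here after 1 and after 3 were the highest of the 6 arrays, and after 2 and before 6 the lowest, the reverse of the brighter HSP90AA1 probe set. The difference was 0.40 ± 0.34 (SE), with an interval of -0.37 to 1.17, and 0.44 ± 0.25 without after 2 and before 6. It was 0.18 without before 6 and 0.67 without after 2.

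DNAJA1 is a J-domain protein that stimulates the ATPase of HSP70. It was at 7.70, 8.22 and 6.52 on the after 1, 2 and 3 arrays, against 8.09, 8.04 and 7.995 on before 4, 5 and 6. As for CACYBP, after 2 lay above all before-cold arrays and after 3 far below them, so the groups overlapped. The mean was 7.48 ± 0.87 after cold and 8.04 ± 0.045 before cold (SD, n = 3 each), a difference of -0.56 ± 0.42 (SE) with an interval of -1.52 to 0.41. Without after 2 and before 6 the difference was -0.95 ± 0.40 (adjusted p = 0.514), and without after 3 it was -0.076.

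HSPD1 is the mitochondrial HSP60 itself. It was at 9.76, 11.19 and 9.55 on the after 1, 2 and 3 arrays, against 10.53, 10.14 and 11.15 on before 4, 5 and 6. The after 2 and before 6 arrays were the highest and nearly equal, and after 1 and after 3 lay below every before-cold array. The difference was -0.44 ± 0.47 (SE), with an interval of -1.53 to 0.64. Without after 2 and before 6 it was -0.68 ± 0.27 (adjusted p = 0.513), and without after 3 it was -0.14.

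HSPB8 is a small heat shock protein that works with BAG3 in the disposal of misfolded proteins. It was at 6.51, 6.71 and 7.36 on the after 1, 2 and 3 arrays, against 6.17, 6.78 and 6.27 on before 4, 5 and 6. After 3 was the highest array, and before 5 lay above after 1 and after 2. The difference was 0.45 ± 0.32 (SE), with an interval of -0.28 to 1.19, and it ranked 147 from the highest of all 12763 probe sets. That rank is by the difference alone, without its SE, and the unadjusted p was 0.193 in limma. From the lowest, HSPBAP1 ranked 183 and CHORDC1 462. Without after 2 and before 6 the HSPB8 difference was 0.46 ± 0.37, and without after 3 it was 0.20.

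HSPBAP1, known as a binding partner of the small heat shock protein HSPB1, was the gene whose groups did not overlap. It was at 4.84, 5.92 and 5.38 on the after 1, 2 and 3 arrays, against 6.26, 6.38 and 5.97 on before 4, 5 and 6. Every after-cold array lay below every before-cold array, and after 2 lay 0.053 below before 6. Non-overlapping groups with lower values after cold were found in 2.31% of all probe sets, with higher values in 2.07%, and in either direction in 4.38%. The mean was 5.38 ± 0.54 after cold and 6.20 ± 0.21 before cold (SD, n = 3 each). The limma difference was -0.82 ± 0.33 (SE), a ratio of 0.565, with an unadjusted p = 0.0353, a 95% interval of -1.57 to -0.072 and an adjusted p = 1. With 3 arrays a group, the smallest p an exact permutation test allows is 0.1. The difference was -1.21 ± 0.28 without after 2 and before 6 (adjusted p = 0.492) and -0.55 without after 1. The probe set was among the dimmest 25% of the table, and no detection call was used here that would tell its signal from background.

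**Figure D2:**
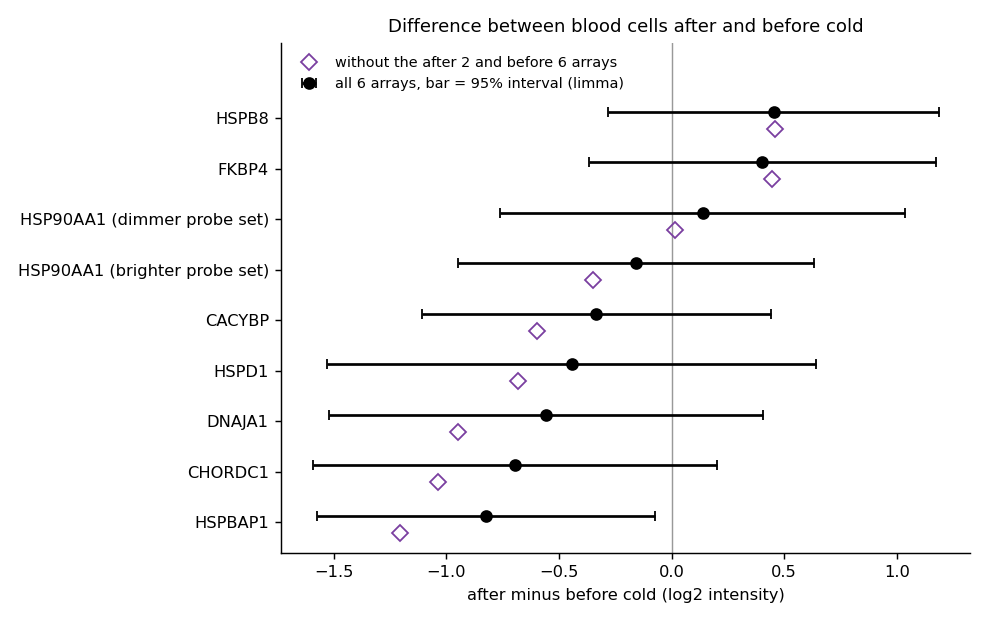
After-minus-before differences of the 9 probe sets in log2 intensity (black points, 95% limma intervals, 6 arrays) and the same without the after 2 and before 6 arrays (open diamonds). The interval of HSPBAP1, -1.57 to -0.072 before any adjustment, ends below 0, and the other 8 intervals include 0.

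Without after 2 and before 6, CHORDC1, DNAJA1, HSPD1 and HSPBAP1 had an unadjusted p under 0.05 in limma, 4 of 9 against 9.67% of all probe sets. All 4 were lower after cold, which 9.28% of all probe sets were at that threshold, and 0 of 9 passed the adjusted one. With these arrays left out, 2 remain in each group. The arrays left out were picked from these same values, as the pair most alike across the groups. Over the table, 63 probe sets had an unadjusted p under 0.05 in limma with all 6 arrays and 1234 without these 2. The 4 of 9 is therefore a description and no support for lower expression after cold.

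The members fell into patterns over the arrays that cut across the groups, as did the table as a whole. The first principal component, the axis along which the arrays differed most over all probe sets, held 68.4% of the variance. Its scores ran from -63.2 on after 3 to 52.1 on after 2, with before 6 at 52. CHORDC1, CACYBP and DNAJA1 shared a profile in which after 3 was far the lowest array, after 1 the next lowest, and the other 4 arrays lay close together. Likeness was measured as the root mean square distance over the 6 arrays between log2 values centred on their own mean. It was 0.15 between CHORDC1 and DNAJA1, 0.19 between CACYBP and DNAJA1 and 0.23 between CACYBP and CHORDC1, where the median distance of DNAJA1 to all other probe sets was 0.61. CHORDC1 was not singular in this: 0.776% of all probe sets lay at least as near to DNAJA1 as it did. For CACYBP and DNAJA1 that share was 1.92%. The median distance of CACYBP to all other probe sets was 0.48, and 7.66% lay at least as near to it as CHORDC1 did. The HSP90AA1 probe sets lay 0.23 apart, and the brighter one was 0.27 from HSPD1. Neither was rare: 12.1% of all probe sets lay at least as near to the brighter one as the dimmer one did, and 19.9% at least as near as HSPD1. The least alike pair was FKBP4 and HSPD1, at 1.02.

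**Figure D3:**
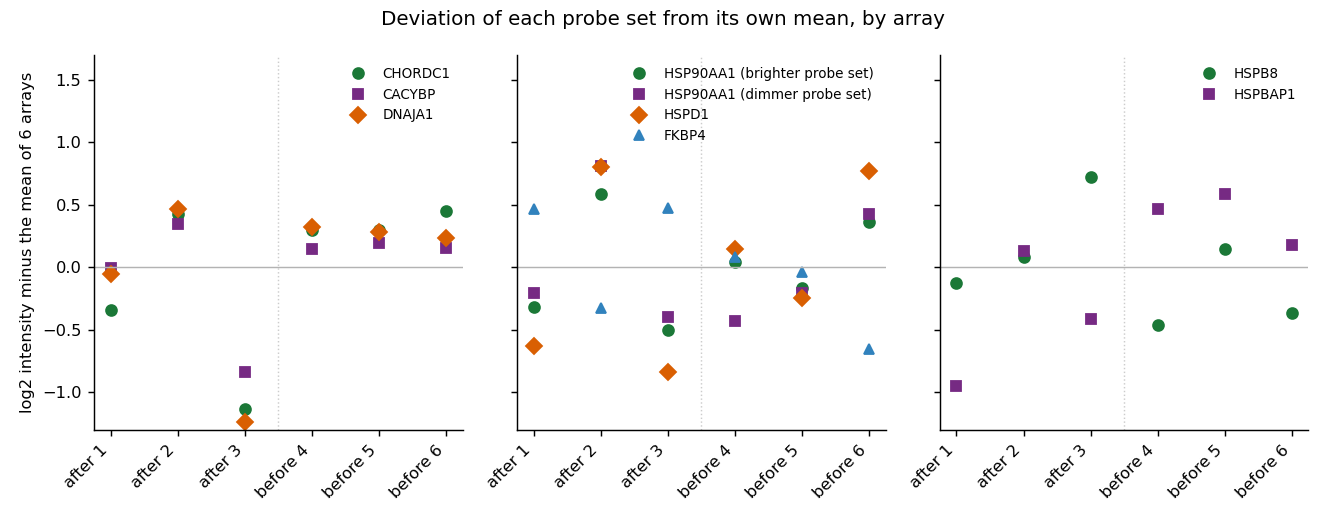
Log2 intensity of each probe set minus its own mean over 6 arrays, by array, after-cold arrays left of before-cold arrays. CHORDC1, CACYBP and DNAJA1 (left panel) drop on after 3; HSP90AA1 and HSPD1 are high and FKBP4 is low on after 2 and before 6 (middle panel); HSPB8 and HSPBAP1 (right panel) follow neither course.

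How often such orders of the arrays occurred was counted over the table, without regard to the size of the steps. The after 2 and before 6 arrays were the highest 2 arrays in 4 of 9 member probe sets and in 35.6% of all, and the lowest 2 in 1 of 9, FKBP4, and in 27.8% of all. After 1 and after 3 were the lowest 2 arrays in 6 of 9 and in 22% of all. The lowest of the 6 arrays was after 3 in 5 of 9 and in 35.7% of all. The nearest genes by the same distance were FUBP1 (0.061) and NCOA1 (0.064) for HSP90AA1, taken at its brighter probe set, and TTC3 (0.046) and ATMIN (0.068) for HSPD1. CHORDC1 was most like GTF2E1 (0.048) and ORC3 (0.051), CACYBP like PPA1 (0.035) and GFM2 (0.061), and DNAJA1 like BBS4 (0.063) and RNPC3 (0.070). For FKBP4 the nearest were METTL25B (0.045) and ING1 (0.054), and for HSPB8 SEMA4F (0.11) and LOC516108 (0.11). HSPBAP1 had its nearest genes farther off, DPYD at 0.16 and C24H18orf32 at 0.20. Each of these 16 genes had an adjusted p of 1 in limma.

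The spread between arrays was larger after cold than before in all 9 member probe sets, and in 75.3% of all probe sets. The contrast was widest in CACYBP, with an SD of 0.61 after cold and 0.025 before cold. DNAJA1 had 0.87 after cold and 0.045 before cold, and CHORDC1 0.78 after cold and 0.085 before cold. HSPD1 had the largest SD after cold, 0.89, but also 0.51 before cold, and FKBP4 had 0.46 after cold and 0.39 before cold. Over all probe sets the median SD was 0.48 after cold and 0.32 before cold. Each SD rests on 3 arrays, no test of the spread was made, and after 3 alone holds the lowest value of CACYBP, DNAJA1 and CHORDC1.

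**Figure D4:**
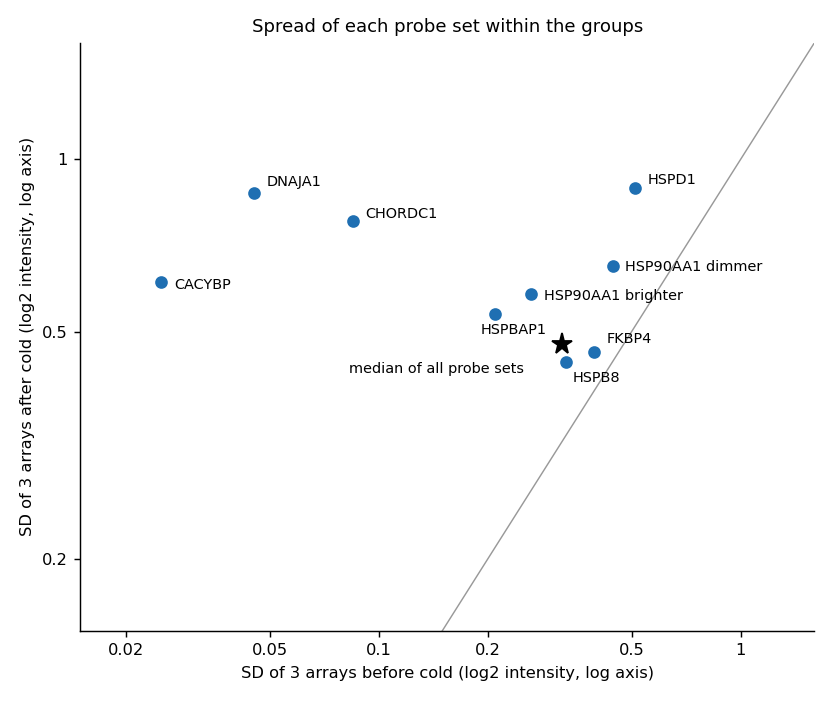
SD of 3 arrays after cold (vertical) against that before cold (horizontal), both in log2 intensity on log axes; the line marks equal SDs and the star the median of all probe sets, 0.48 after and 0.32 before cold. All 9 probe sets lie above the line, with CACYBP, DNAJA1 and CHORDC1 farthest to the left.

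The wider chaperone network was followed in 7 gene lists, each gene taken at its probe set with the highest mean, and 0 genes in any list passed the adjusted threshold in either direction. The median difference over all probe sets was 0.019. Of the 4 HSP90 proteins, 3 had a lower mean after cold, with a list median of -0.15. HSP90AB1, the constitutive cytosolic form, whose probe set name marks probes shared between transcripts, differed by -0.14 ± 0.27 (SE), HSP90B1 of the endoplasmic reticulum by -0.46 ± 0.48 and the mitochondrial TRAP1 by 0.26 ± 0.27. HSP90B1 was highest on after 2 and before 6, at 11.52 and 11.51, as HSP90AA1 was.

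Of 20 measured HSP90 co-chaperones, 14 were higher and 6 lower on average after cold (list median 0.091). CHORDC1 and FKBP4 were the ends of this list. STIP1, which bridges HSP70 and HSP90, differed by 0.10 ± 0.24 (SE), the kinase loader CDC37 by 0.14 ± 0.32 and the p23 gene PTGES3 by 0.067 ± 0.33. ST13, which binds HSP70, differed by -0.36 ± 0.32, and its other probe set by -0.47 ± 0.40. The isomerase PPID differed by -0.38 ± 0.31 at its brighter probe set and by 0.19 ± 0.29 at the other.

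The 21 measured J-domain genes were split into 11 higher and 10 lower after cold (list median 0.022). DNAJB9, a J-domain protein of the endoplasmic reticulum, had the lowest difference, -0.69 ± 0.33 (SE), and DNAJC17 the highest, 0.25 ± 0.39. DNAJB1, the classical heat-induced partner of HSP70, differed by -0.032 ± 0.46, with an SD of 0.97 after cold and 0.18 before cold. In mitochondrial folding and protein quality control, 7 of 11 were higher (list median 0.15). The protease HTRA2, at the brighter of its 2 probe sets, was higher on every after-cold array. It was at 9.58, 9.31 and 9.27, against 9.19, 8.97 and 9.04 before cold (difference 0.32 ± 0.24). Non-overlapping groups with higher values after cold were found in 2.07% of all probe sets, and the other HTRA2 probe set is not described here. The protease YME1L1 differed by -0.67 ± 0.36.

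The cytosolic chaperonin TRiC and prefoldin, with tubulin cofactors, had 10 of 20 genes higher (list median 0.0037), from TBCE at -0.77 ± 0.35 (SE) to TBCA at 0.28 ± 0.29. Chosen after their values were seen, the TRiC subunits CCT2, CCT4, CCT6A and CCT8 had the after 3 profile of CHORDC1 and DNAJA1. CCT8 was at 10.04, 10.73 and 9.22 after cold, against 10.74, 10.66 and 10.62 before cold. The other measured subunits did not: CCT3 was at 9.79, 9.27 and 9.23 after cold, against 9.71, 9.32 and 9.07 before cold, and CCT5 differed by 0.27 ± 0.25. Among small heat shock proteins and their partners 3 of 4 were higher (list median 0.13): HSPB8, HSPB1 at 0.21 ± 0.35 and BAG3 at 0.039 ± 0.33, with HSPBAP1 the lower one. Of the heat shock factor genes, HSF1 differed by 0.29 ± 0.34, HSF2 by -0.21 ± 0.37 and HSF2BP by 0.27 ± 0.45, and 2 of 3 were higher (list median 0.27).

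**Figure D5:**
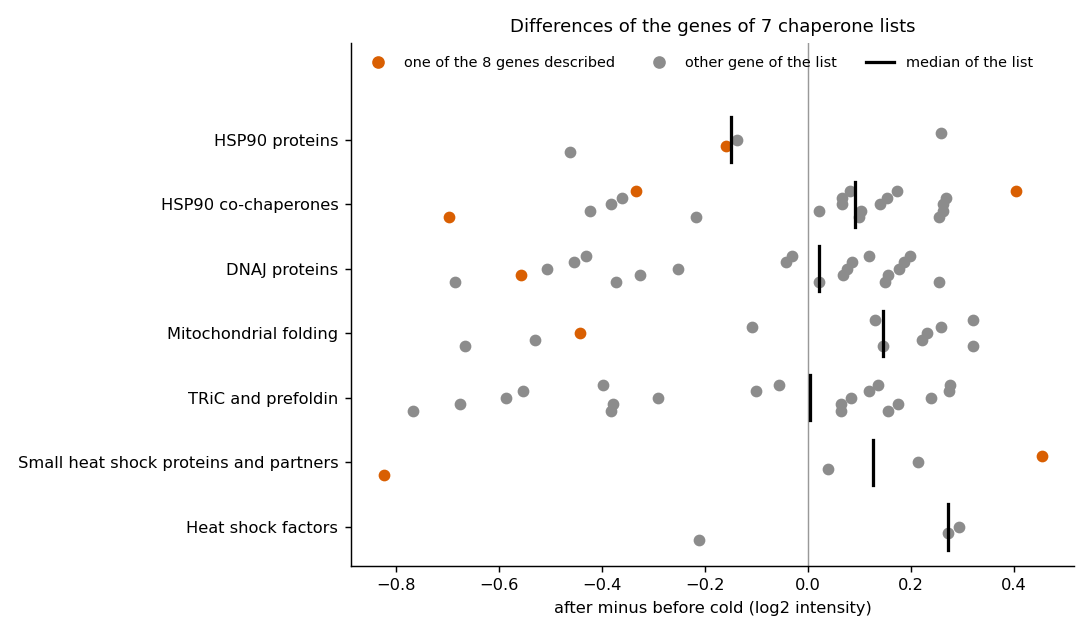
After-minus-before differences in log2 intensity of the measured genes of 7 chaperone lists (1 point per gene, spread vertically only for legibility), with the list median as a black bar and the described genes in orange. List medians run from -0.15 for HSP90 proteins to 0.27 for heat shock factors, and no point passed the adjusted test.

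The labelled tissue, white blood cells, was checked on marker genes. The leukocyte gene PTPRC was at 11.66 ± 0.64 after cold and 11.82 ± 0.53 before cold (SD, n = 3 each), the T cell gene CD3E at 10.89 ± 0.024 after cold and 10.93 ± 0.28 before cold, and the granulocyte gene S100A8 at 13.29 ± 0.24 after cold and 13.10 ± 0.40 before cold. Of 11 measured leukocyte markers 5 had a higher mean after cold (list median -0.037), of 4 red cell genes 4 (0.11) and of 2 platelet genes 0 (-0.24), and none passed the adjusted threshold. HBB of red cells was at 12.06 ± 0.19 after cold and 11.97 ± 0.26 before cold, and PF4 of platelets at 12.53 ± 0.11 after cold and 12.63 ± 0.15 before cold, so signal of both cell types was present. CD3G, a T cell gene, was at 9.86 on after 3 and between 11.26 and 11.75 on the other arrays, the same array on which CHORDC1, CACYBP and DNAJA1 were lowest. The other T cell markers were not lowest there: CD3E was at 10.91 on after 3 and between 10.77 and 11.26 elsewhere, and CD3D at 11.53 and between 11.36 and 12.17. Of the other leukocyte markers, CD14 (9.55), CD79A (10.95), S100A9 (11.95) and S100A8 (13.57, against 13.54 on before 5) were highest on after 3. PTPRC, MS4A1, CSF1R and S100A12 were neither highest nor lowest there. The part of T cells and other cell types in these values was not tested. In blood cell RNA as a whole, fewer cells of a type and less RNA per cell cannot be told apart.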

How the data were processed

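RNA of white blood cells from 6 blood samples was labelled with biotin and hybridised to an Affymetrix bovine array. The authors deposited probe set intensities on a linear scale, naming GCOS and RMA with neither version nor role, per the submitters' processing notes. No genome build, filter or detection call is given in the sources used. Intensities ran from 3.91 to 18225. Array medians on the log2 scale ran from 7.25 on after 3 to 7.49 on after 2. Precision is limited by 3 arrays per group.

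Log2 of the deposited intensities was fitted with limma 3.58.1 in R 4.3.3 over all 12763 probe sets (after minus before cold, no block, no pseudocount, no filter, two-sided, Benjamini-Hochberg, threshold 0.05). The scripts were tested on simulated data. Symbols came from the platform annotation, and all 8 matched their identifiers in the RefSeq gene table of ARS-UCD2.0. Members, lists and settings were chosen with earlier results of these data known. The named genes of the chaperone lists are those with non-overlapping groups and a difference of at least 0.5, otherwise the highest and lowest of the list. HSPBAP1 alone met the first part. Other genes (HSP90AB1, STIP1, CDC37, PTGES3, ST13, PPID, DNAJB1, HSPE1, CCT genes, HSPB1, BAG3, HSF2BP and the markers) were picked for their roles or after their values were seen. Near genes are the 2 with the smallest distance. A heat shock element search of promoters was planned and not run, since no promoter sequence was used here.

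Alternatives were filters on the dimmest 25% or 50%, an intensity trend, array weights, 3 normalizations, an unadjusted threshold, leaving out arrays, and a block for each of the 6 possible matchings of samples into animals.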

Additional observations from a re-analysis of the deposited data

How the results depend on the processing

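Under the 11 alternatives that can change a fitted difference, 95 of 99 values of the member probe sets kept their direction. The smallest adjusted p of a member under any alternative was 0.270. Adjusted p-values passed 0.05 in 0 probe sets under every alternative, and an unadjusted threshold gave 63 probe sets in the table, of which 1 was a member, HSPBAP1 (-0.82). The changes of direction arose on leaving out each array in turn. That range was -0.23 to 0.39 for the dimmer HSP90AA1 probe set (negative without after 2, and -0.042 without before 4), -0.49 to 0.053 for the brighter one (positive without after 3) and -0.59 to 0.0033 for CACYBP (positive without after 3). The mean of both HSP90AA1 probe sets gave -0.010. Members at an unadjusted p under 0.05 numbered 3 with array weights (5.19% of the table), which gave after 1 a weight of 0.0019, and 4 without after 2 and before 6 (9.67%). They numbered 0 with quantile normalization (0.784%). They also numbered 0 without the dimmest 25%, which drops HSPBAP1, and without the dimmest 50%, which drops CHORDC1 and HSPB8 too. Leaving out each array gave 0 to 4: 4 without after 2 (14% of the table), and 0 without after 1, after 3, before 4 or before 5 (at most 0.306%). With a block for a matching of samples they numbered 4 (1-4, 2-6, 3-5; 9.15% of the table), 2 (1-5, 2-6, 3-4; 5.14%), 1 (1-6, 2-4, 3-5; 0.548%) and 0 in the remaining 3, and the smallest adjusted p of a member was 0.492. The labels leave the animal of each sample unnamed, so none of these is the study's own pairing. In the matching 1-4, 2-6, 3-5 each after-cold array was matched to the before-cold array it correlated with best across probe sets (0.986, 0.995 and 0.947). This is a hint from the data and not from the design. The last pair was not mutual, since before 5 correlated better with after 1 (0.965). There FKBP4 and HSPB8 were higher after cold in each pair, and CHORDC1 (-0.019 in 2-6) and HSPBAP1 lower (adjusted p 0.492 each in limma). This matching gave every member its smallest block p, and HSPBAP1 was lower in all 6. Of 140 list medians, 10 moved by more than the spread between arrays. Lower medians were TRiC and prefoldin at -0.28, heat shock factors at -0.15 and mitochondrial folding at 0.027 with array weights. Also lower were TRiC and prefoldin at -0.21 without after 1, J-domain genes at -0.25 without the dimmest 50%, and HSP90 co-chaperones at -0.057 without before 6. Higher medians were mitochondrial folding at 0.29 without after 2 and 0.27 without before 4, red cell genes at 0.27 without before 4, and platelet genes at 0.053 with array weights. The causes were not tested, except that leaving out arrays or probe sets lowers their number. Without a background measure, the limit that dim signal sets could not be tested.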

Other observations

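HSPD1 and HSPE1 are neighbours in the RefSeq gene table, and their products form the mitochondrial chaperonin together: HSPE1 is the HSP10 lid of the HSP60 barrel. Their values over the arrays did not run alike. HSPE1 was at 10.73, 9.99 and 10.13 on the after 1, 2 and 3 arrays, against 10.07, 10.39 and 10.01 on before 4, 5 and 6. It was highest on after 1 and lowest on after 2, where HSPD1 was highest, though before 6 was nearly as low. HSPE1 differed by 0.13 ± 0.29 (SE) and HSPD1 by -0.44 ± 0.47, each with an adjusted p of 1 in limma. The difference between the genes was not tested.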
